A study of Homo sapiens with 6 samples.

Results

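The 43 genes described here encode the transporters and enzymes of glycolysis, the kinases that set its flux, the subunits and prolyl hydroxylases of hypoxia-inducible factor (HIF), and further genes that HIF is known to activate. They were chosen by name with earlier results of these data known, and each had 1 row among the 39323 gene rows of the read table. Polyadenylated RNA was sequenced from MDA-MB-231 cells, a human breast cancer line with a mesenchymal appearance, cultured in serum. Cells were transfected by lipid reagent with 1 small interfering RNA duplex against SF3B6 (siSF3B6, 3 libraries) or with a non-targeting duplex (siNC, 3 libraries). SF3B6 is a small subunit of the SF3b complex, which recognises the branch point of introns in the spliceosome. No label gives the time after transfection or says that the cells were kept at low oxygen, and all 6 libraries come from this line.

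Glycolysis converts glucose to pyruvate in a fixed series of steps. Lactate dehydrogenase then reduces pyruvate to lactate, which leaves the cell through monocarboxylate transporters, while pyruvate dehydrogenase kinases hold pyruvate back from the mitochondria. HIF is a dimer of an alpha subunit (HIF1A or EPAS1) and ARNT. Prolyl hydroxylases of the EGLN family mark the alpha subunit for destruction when oxygen is present. Without oxygen the dimer accumulates, binds short elements with a common core and activates glycolytic genes together with genes of angiogenesis, acid balance, mitophagy and collagen processing. Breast cancer lines such as MDA-MB-231 are known for a high rate of glycolysis.

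The gene test was edgeR's quasi-likelihood test on the counts, with Benjamini-Hochberg adjustment over the 16869 genes that passed the filter on low counts. A gene is called here when its adjusted p is under 0.05, and levels are read counts scaled to library size (CPM), made comparable between libraries by TMM factors. SF3B6 itself was at 86.4, 80.5 and 102 CPM with siNC and at 22.5, 25.0 and 21.3 CPM with siSF3B6, which is 25.6% of the siNC mean (log2 fold change -1.96 ± 0.10 SE, adjusted p = 1.43e-07). Of all genes tested, 40.8% were called, 20.8% as higher and 20.0% as lower with siSF3B6, and 26.3% had all 3 siSF3B6 libraries above all 3 siNC libraries. The libraries held 28504091 to 38546037 reads. The third siNC library stood apart from the other siNC libraries: mitochondrially encoded genes took 9.07% of its reads, against 3.38% and 3.93% in the other siNC libraries and 10.6% to 11.8% with siSF3B6. It also had 7731 genes with 1 to 9 reads, against 13952 and 14956 in the other siNC libraries and 7877 to 8325 with siSF3B6. On both measures it lay nearer to the siSF3B6 libraries, so the departure of the other siNC libraries cannot be told apart from the siRNA. The mean chi-square of counts per gene was 3.74 between the first and second siNC libraries and 2.33 between those of siSF3B6. Pairs with the third library gave 60.2 and 74.9 with siNC, and 18.1 and 22.2 with siSF3B6. The first and second libraries of each group were thus much more alike than either was to the third. Markers of the line were mostly abundant (VIM at 2880 to 3320 CPM), with SPARC low at a mean of 1.26 CPM. Of these 7 markers, 2 were called higher with siSF3B6 and 0 lower. CAV1 rose 1.34-fold without overlap. SPARC was called with overlapping groups and was highest in the second siSF3B6 library, at 3.82 CPM. Of 8 luminal or epithelial markers, ESR1 and PGR were under 1 CPM, while KRT8 and KRT18 were abundant, and the list summed to 1802 to 1897 CPM with siNC and 1828 to 2111 CPM with siSF3B6. Of its 6 tested members 3 were called higher with siSF3B6, without overlap: EPCAM (11.2, 11.0 and 9.85 CPM against 22.0, 22.3 and 24.0 CPM), CDH1 and GATA3. The 11 markers of other cell types summed to 30.0 to 36.1 CPM with siNC and 33.3 to 49.0 CPM with siSF3B6. CD14, PECAM1 and COL1A1 had the highest means, 13.1, 8.2 and 6.74 CPM, and 5 of the 11 had means under 1 CPM, among them PTPRC, CD3E and CDH5. Of the 7 tested, 4 were called higher (PTPRC, CD68, COL1A2 and HBB) and PECAM1 lower. HBB was at 6.52 CPM in the second siSF3B6 library and at 0.0298 to 0.49 CPM in the others, so its call rests on that library. COL1A2 alone of those called higher had no overlap, at 1.43 to 1.92 CPM with siNC and 3.73 to 7.23 CPM with siSF3B6. Its highest value was also in the second siSF3B6 library. These markers moved in the same comparison as the genes described next, and their part in those results was not tested. The design text calls the replicates biological, but no label says that they were separate cultures, so the p-values take in only library-to-library spread, which may be technical. A change in RNA per cell and a change in the share of cells that carry an RNA cannot be told apart in bulk RNA.

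All 43 genes passed the filter. With siSF3B6, 25 were called higher, 3 were called lower and 15 were not called, with a median log2 fold change of 0.37 against 0.001 over all genes tested. The siSF3B6 libraries lay wholly above the siNC libraries for 28 of the 43 and wholly below for 3. Of the 16869 genes tested, 4429 lay wholly above and 4364 wholly below. The calls were unevenly spread over the roles. Of the 19 HIF targets, subunits and hydroxylases outside the pathway, 16 (84.2%) were called higher and 0 lower, with a median of 0.62. Of the 17 glycolytic enzymes, 4 (23.5%) were called higher, close to the 20.8% of all genes tested, and 2 were called lower, with a median of 0.05. The sign of the enzymes' median depended on the scaling: it was -0.06 with library size as the only scaling and -0.003 on deposited FPKM values (fragments scaled to transcript length and library size), but 0.13 with the third siNC library as the lone control, 0.17 after an offset for GC content and length, and 0.02 to 0.10 with single libraries left out. The median of the 19 HIF genes lay between 0.50 and 0.63 under all alternatives. A rise of at least 1.5-fold was reached by 11 of the 19 HIF genes and by 0 of the 17 enzymes. No test was made of the difference between these groups, because both were put together with results of these data known.

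**Figure D1:**
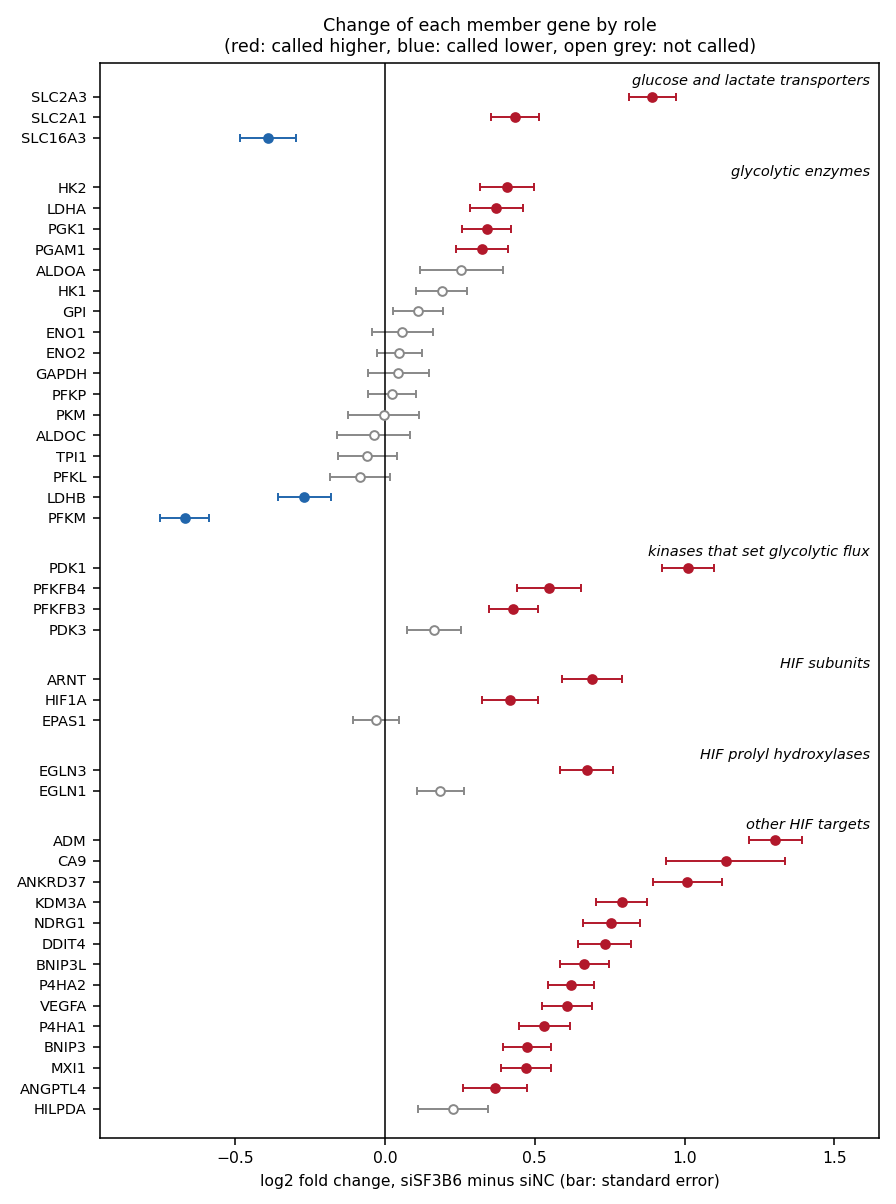
Each point is the log2 fold change of 1 gene, siSF3B6 minus siNC (x axis; bar, standard error of the edgeR fit, 3 libraries per group), with the genes in rows by role. Red points were called higher, blue points lower and open points were not called. The HIF targets lie between 0.23 and 1.30, whereas the enzymes are spread around 0, from -0.67 to 0.41.

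Library by library, the median level of the 19 HIF genes relative to the siNC mean was 0.04, -0.01 and -0.03 (log2) with siNC and 0.62, 0.59 and 0.60 with siSF3B6, so the groups did not overlap. For the 17 enzymes the medians were 0.03, 0.03 and -0.09 with siNC and 0.10, 0.13 and -0.09 with siSF3B6. The third library of each group was the lowest for the enzymes, and the groups overlapped. Among the 25 genes called higher, the third siNC library was the lowest siNC library for 14, the middle one for 4 and the highest for 7. With the libraries numbered 3 left out of both groups, 32 of the 43 genes were called higher and 4 lower, 8 of the higher ones being enzymes. Over all genes tested in that setting, 28.6% were called higher and 27.0% lower, more than with all 6 libraries. With mitochondrially encoded genes left out, 25 genes were again called higher and 3 lower.

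**Figure D2:**
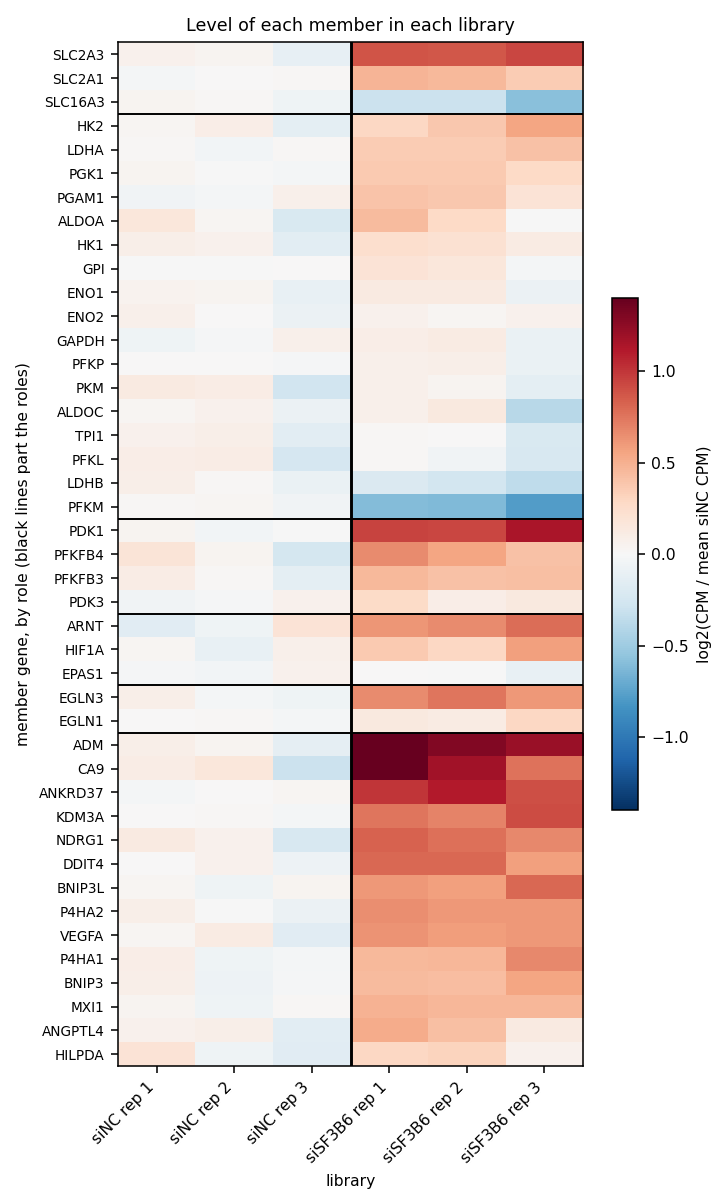
Colour gives the log2 ratio of a gene's CPM in 1 library to its mean over the 3 siNC libraries, with genes in rows by role and the 6 libraries in columns. The HIF genes in the lower 3 blocks are red in the 3 siSF3B6 libraries, with exceptions. EPAS1, EGLN1 and HILPDA are pale, as are HIF1A in the first and second siSF3B6 libraries and ANGPTL4 in the third. The enzyme block is mostly pale, with PFKM blue.

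Promoters of 38 of the 43 genes were found in RefSeq (build GRCh38.p14, from 250 bases before to 50 bases after each annotated start). Both cores that HIF is known to bind, ACGTG and GCGTG, were searched on both strands, which means that CACGT and CACGC count as matches, and the word CACGTG holds overlapping matches of ACGTG on either strand. The stretches below run from 200 bases before to 10 bases after the start, 5′ to 3′, all on the + strand, with matches to either core in capitals. Shown are the 4 genes called higher with the largest changes among those with a promoter entry, then LDHA as the most abundant enzyme called higher and SLC16A3 as a gene called lower. Where a gene has several starts, the one with the most ACGTG matches is shown.
ADM, chr11:10304873-10305082: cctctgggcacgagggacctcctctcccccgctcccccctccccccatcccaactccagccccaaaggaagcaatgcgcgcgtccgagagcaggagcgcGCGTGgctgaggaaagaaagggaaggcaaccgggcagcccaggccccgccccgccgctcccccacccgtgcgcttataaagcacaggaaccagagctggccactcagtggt
CA9, chr9:35673728-35673937: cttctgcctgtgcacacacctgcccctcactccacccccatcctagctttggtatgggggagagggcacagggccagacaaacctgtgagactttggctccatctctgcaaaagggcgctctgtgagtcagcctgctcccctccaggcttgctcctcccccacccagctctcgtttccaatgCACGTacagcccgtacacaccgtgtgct
PDK1, chr2:172555890-172556099: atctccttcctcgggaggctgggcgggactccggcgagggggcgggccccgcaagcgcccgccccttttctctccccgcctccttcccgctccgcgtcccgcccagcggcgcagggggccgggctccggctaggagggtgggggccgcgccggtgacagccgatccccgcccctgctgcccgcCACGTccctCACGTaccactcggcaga
ANKRD37, chr4:185396641-185396850: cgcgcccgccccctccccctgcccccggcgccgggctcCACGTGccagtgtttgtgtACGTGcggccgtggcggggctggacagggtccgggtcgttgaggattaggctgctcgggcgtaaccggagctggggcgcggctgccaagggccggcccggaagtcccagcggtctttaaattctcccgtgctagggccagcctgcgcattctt
LDHA, chr11:18394363-18394572: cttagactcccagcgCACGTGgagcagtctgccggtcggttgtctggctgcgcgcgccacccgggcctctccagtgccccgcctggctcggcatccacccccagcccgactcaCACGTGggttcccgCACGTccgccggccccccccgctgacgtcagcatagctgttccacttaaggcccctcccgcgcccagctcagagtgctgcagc
SLC16A3, chr17:82228842-82229051: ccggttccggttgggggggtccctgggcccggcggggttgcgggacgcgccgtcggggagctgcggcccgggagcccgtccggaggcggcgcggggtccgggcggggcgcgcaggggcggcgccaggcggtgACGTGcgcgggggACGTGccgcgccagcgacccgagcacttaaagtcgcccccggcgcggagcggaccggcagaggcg
The LDHA stretch held 5 matches and that of ANKRD37 held 3, overlapping matches included. PDK1 and SLC16A3 had 2 each. In CA9 the single match lay close to the start, and in ADM the single match was of the GCGTG form. The core ACGTG was found in a window of 23 of the 38 genes (60.5%), against 31.9% of the 11346 tested genes with a RefSeq promoter. Counted over windows, since the genes differ in how many starts they have, 27 of 68 windows (39.7%) held it against 25.1%. Among the genes described here, ACGTG was in 12 of the 21 called higher (57.1%) and in 11 of the 17 others (64.7%). With GCGTG admitted as well, 34 of 38 genes (89.5%) had a match, against 68.8% of tested genes. These counts are descriptions of letters near the start; elements elsewhere were not searched, and no factor's binding was measured.

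ADM, which encodes the vasodilator peptide adrenomedullin, had the largest change. It was at 40.6, 39.5 and 35.2 CPM with siNC and at 101, 94.5 and 88.5 CPM with siSF3B6, a 2.47-fold rise (log2 fold change 1.30 ± 0.09 SE, adjusted p = 8.99e-07). The groups were far apart. CA9, the membrane carbonic anhydrase that serves as a hypoxia marker in tumours, was at 2.02, 2.09 and 1.52 CPM with siNC and at 4.94, 4.25 and 3.17 CPM with siSF3B6 (2.20-fold, log2 fold change 1.14 ± 0.20 SE, adjusted p = 0.000556). Its level was low in both groups, and its first siSF3B6 library was the highest. ANKRD37, a small ankyrin repeat protein, was at 5.29, 5.40 and 5.48 CPM with siNC and at 10.8, 11.7 and 10.0 CPM with siSF3B6 (2.01-fold, log2 fold change 1.01 ± 0.11 SE, adjusted p = 2.41e-05). The exons of CA9 share 38.5% of their bases with the opposite-strand gene ARHGEF39 and those of ANKRD37 share 35.2% with UFSP2. The sources used here do not state whether the counting used strand, so reads of such partners cannot be told apart.

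The chromatin and stress genes of the HIF response rose by smaller factors. KDM3A, a histone H3 lysine demethylase, was at 39.5, 39.6 and 38.6 CPM with siNC and at 65.9, 63.5 and 74.1 CPM with siSF3B6 (1.73-fold, adjusted p = 1.68e-05). DDIT4, an inhibitor of mTORC1 signalling, went from 373, 387 and 354 CPM to 647, 649 and 555 CPM (1.66-fold, adjusted p = 4.03e-05). It was also the most abundant per length of the 19 HIF genes outside the pathway. Its level was 150 ± 5.18 FPKM with siNC and 240 ± 21.4 FPKM with siSF3B6 (SD, n = 3). An antisense gene covers 41.2% of its exonic bases. NDRG1, a stress-responsive gene linked to metastasis, was at 201, 192 and 158 CPM with siNC and at 325, 313 and 292 CPM with siSF3B6 (1.69-fold, adjusted p = 5.39e-05). MXI1, an antagonist of MYC, rose 1.39-fold from a mean of 19.9 ± 0.76 to 27.6 ± 0.26 CPM (SD, n = 3, adjusted p = 0.000614). None of these genes had overlapping groups.

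Secreted factors rose as well. VEGFA, the main angiogenic growth factor, was at 179, 190 and 157 CPM with siNC and at 271, 263 and 267 CPM with siSF3B6 (1.52-fold, log2 fold change 0.61 ± 0.08 SE, adjusted p = 0.00011). ANGPTL4, an inhibitor of lipoprotein lipase, was at 34.4, 35.1 and 29.9 CPM with siNC and at 47.3, 44.5 and 36.2 CPM with siSF3B6 (1.29-fold, adjusted p = 0.0145). The third siSF3B6 library of ANGPTL4 lay just above the highest siNC library. ANGPTL4 lost its call in 6 of the 21 alternatives. Among these were leaving out the first siSF3B6 library (adjusted p = 0.0814) and library size as the only scaling (adjusted p = 0.0779). The call was also lost on log2(FPKM + 1), filtered (adjusted p = 0.0522) or unfiltered (adjusted p = 0.181). Over all alternatives its log2 fold change lay between 0.26 and 0.62. HILPDA, a lipid droplet protein, was at 12.9, 10.8 and 10.1 CPM with siNC and at 13.8, 14.0 and 11.8 CPM with siSF3B6. The groups overlapped, and HILPDA was the only one of the 14 other HIF targets that was not called (adjusted p = 0.135).

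Both mitophagy receptors and both collagen prolyl hydroxylases rose. BNIP3L was at 119, 111 and 120 CPM with siNC and at 177, 174 and 204 CPM with siSF3B6 (1.59-fold, adjusted p = 5.15e-05), and its paralog BNIP3 went from a mean of 264 ± 14.6 to 368 ± 17.1 CPM (SD, n = 3, 1.39-fold, adjusted p = 0.000442). P4HA2 was at 93.0, 87.3 and 82.8 CPM with siNC and at 138, 134 and 133 CPM with siSF3B6 (1.54-fold, adjusted p = 4.73e-05). P4HA1, the alternative catalytic subunit of collagen prolyl 4-hydroxylase, rose 1.45-fold from a mean of 94.0 ± 5.40 to 136 ± 12.2 CPM (SD, n = 3, adjusted p = 0.000324). In all 4 genes every siSF3B6 library exceeded every siNC library.

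Among the HIF subunits, ARNT and HIF1A were called higher and EPAS1 was not called. ARNT, the shared beta subunit, was at 19.5, 20.9 and 24.7 CPM with siNC and at 33.4, 34.4 and 37.3 CPM with siSF3B6 (1.61-fold, log2 fold change 0.69 ± 0.10 SE, adjusted p = 0.000159). HIF1A was at 391, 359 and 405 CPM with siNC and at 496, 471 and 575 CPM with siSF3B6 (1.34-fold, log2 fold change 0.42 ± 0.09 SE, adjusted p = 0.00294). Its log2 fold change was 0.20 after an offset for GC content and length, still called. The call was lost with the third siNC library as the lone control (0.33, adjusted p = 0.107) and on unfiltered log2(FPKM + 1) (0.36, adjusted p = 0.0714). EPAS1, which encodes HIF-2 alpha, was at 86.4, 85.2 and 91.4 CPM with siNC and at 88.3, 87.5 and 81.8 CPM with siSF3B6 (log2 fold change -0.03 ± 0.08 SE, adjusted p = 0.779), with overlapping groups. Of the hydroxylases, EGLN3, itself a HIF target, was at 20.1, 18.6 and 18.2 CPM with siNC and at 30.0, 31.8 and 28.7 CPM with siSF3B6 (1.59-fold, adjusted p = 7.01e-05). EGLN1, the main oxygen sensor of the family, was higher in every siSF3B6 library, at a mean of 79.3 ± 5.46 against 69.8 ± 1.07 CPM (SD, n = 3), but was not called (adjusted p = 0.0779). These are RNA levels, and HIF alpha protein, which is controlled mainly by degradation, was not measured.

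Glucose uptake genes rose while the lactate exporter fell. SLC2A3, the high-affinity glucose transporter, was at 58.9, 58.1 and 52.3 CPM with siNC and at 104, 103 and 108 CPM with siSF3B6 (1.86-fold, log2 fold change 0.89 ± 0.08 SE, adjusted p = 4.59e-06). SLC2A1, the basal glucose transporter, was at 476, 486 and 490 CPM with siNC and at 676, 665 and 621 CPM with siSF3B6 (1.35-fold, adjusted p = 0.000807). Neither had overlapping groups. SLC16A3, which exports lactate from glycolytic cells and is itself a known HIF target, was at 819, 807 and 768 CPM with siNC and at 646, 645 and 534 CPM with siSF3B6 (log2 fold change -0.39 ± 0.09 SE, adjusted p = 0.0045), 76.2% of the siNC mean. The third siSF3B6 library was the lowest. Its log2 fold change was -0.17, still called, after the offset for GC content and length, and the call was lost with the third siNC library as the lone control (-0.35, adjusted p = 0.0834).

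The kinases that steer carbon at the entry and the exit of glycolysis were mostly higher. PDK1, which phosphorylates and blocks pyruvate dehydrogenase, was at 26.9, 25.7 and 26.2 CPM with siNC and at 50.7, 50.2 and 58.0 CPM with siSF3B6 (2.02-fold, log2 fold change 1.01 ± 0.09 SE, adjusted p = 3.8e-06). The change of its paralog PDK3, from a mean of 17.5 ± 0.70 to 19.6 ± 1.24 CPM (SD, n = 3), was not called (adjusted p = 0.167). PFKFB4 was at 54.9, 49.8 and 40.9 CPM with siNC and at 76.5, 71.4 and 64.7 CPM with siSF3B6 (1.46-fold, adjusted p = 0.00123). PFKFB3 was at 56.9, 53.7 and 48.3 CPM with siNC and at 72.6, 70.4 and 71.0 CPM with siSF3B6 (1.35-fold, adjusted p = 0.00116). Both make fructose 2,6-bisphosphate, the activator of phosphofructokinase, and neither had overlapping groups.

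Of the 17 enzymes, 4 were called higher, from separate steps of the pathway. HK2, the inducible hexokinase, was at 110, 115 and 98.6 CPM with siNC and at 132, 140 and 158 CPM with siSF3B6 (1.33-fold, adjusted p = 0.0028). PGK1, which makes the first ATP of the payoff phase, was at 759, 742 and 725 CPM with siNC and at 957, 958 and 900.1 CPM with siSF3B6 (1.26-fold, adjusted p = 0.00471). PGAM1, the phosphoglycerate mutase of most tissues, was at 430, 436 and 468 CPM with siNC and at 585, 576 and 509 CPM with siSF3B6 (1.25-fold, adjusted p = 0.00837). LDHA, the muscle-type lactate dehydrogenase subunit, was at 2485, 2395 and 2487 CPM with siNC and at 3140, 3130 and 3268 CPM with siSF3B6 (log2 fold change 0.37 ± 0.09 SE, adjusted p = 0.0045). None of the 4 had overlapping groups, and their log2 fold changes, 0.32 to 0.41, were below the median of the HIF genes. The number of enzymes called higher moved with the processing. It was 7 without the third siSF3B6 library (18.4% of all genes called higher there), 8 without the libraries numbered 3 (28.6%; HK1, GPI, ALDOA and GAPDH being added) and 11 after the offset for GC content and length (23.2%). It was 3 with the third siNC library as the lone control (6.6%), where PGAM1 lost its call (0.24, adjusted p = 0.21). It was 1 on unfiltered log2(FPKM + 1) (4.0%), where HK2 (0.34, adjusted p = 0.0573), PGAM1 (0.27, adjusted p = 0.127) and LDHA (0.32, adjusted p = 0.0736) lost theirs.

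PFKM, the muscle isoform of phosphofructokinase, was the enzyme with the largest fall. It was at 78.9, 79.4 and 75.0 CPM with siNC and at 51.0, 50.6 and 45.1 CPM with siSF3B6, 62.9% of the siNC mean (log2 fold change -0.67 ± 0.08 SE, adjusted p = 4.17e-05). The groups did not overlap, and the log2 fold change lay between -0.78 and -0.62 under all alternatives. The platelet isoform PFKP was at 421, 422 and 416 CPM with siNC and at 442, 445 and 392 CPM with siSF3B6, and the liver isoform PFKL at 114, 115 and 91.1 CPM with siNC and at 108, 103 and 91.6 CPM with siSF3B6. Both had overlapping groups and were not called (adjusted p = 0.847 and 0.539).

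The most abundant enzymes of the pathway were not called apart from LDHA. Per length, and leaving aside the aldolase locus, whose reads were mostly counted on an overlapping row (466 to 495 FPKM with siNC), GAPDH was the highest with siNC at 2228 ± 124 FPKM, ahead of ENO1 at 752 ± 37.0, TPI1 at 406 ± 30.9, PKM at 388 ± 53.9 and LDHA at 348 ± 10.8 FPKM (SD, n = 3). TPI1 and LDHA lay within 1 SD of the PKM mean and were not distinguished from it. GAPDH was at 5987, 6159 and 6559 CPM with siNC and at 6664, 6767 and 5860 CPM with siSF3B6 (log2 fold change 0.05 ± 0.10 SE, adjusted p = 0.755). ENO1 was at 4751, 4722 and 4276 CPM with siNC and at 4985, 5005 and 4317 CPM with siSF3B6 (0.06 ± 0.10 SE, adjusted p = 0.682). In these genes the third library of the siSF3B6 group was the lowest of its group. The third siNC library was the highest siNC library for GAPDH and the lowest for ENO1 and PKM. PKM, which catalyses the last ATP-yielding step, was at 4255, 4186 and 3229 CPM with siNC and at 4094, 4006 and 3537 CPM with siSF3B6 (-0.004 ± 0.12 SE, adjusted p = 0.983). TPI1, GPI, ENO2 and ALDOC had log2 fold changes of -0.06, 0.11, 0.05 and -0.04 with overlapping groups. HK1 was above siNC in every siSF3B6 library, at a mean of 316 ± 13.5 against 277 ± 24.3 CPM (SD, n = 3), and was not called (adjusted p = 0.0892).

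**Figure D3:**
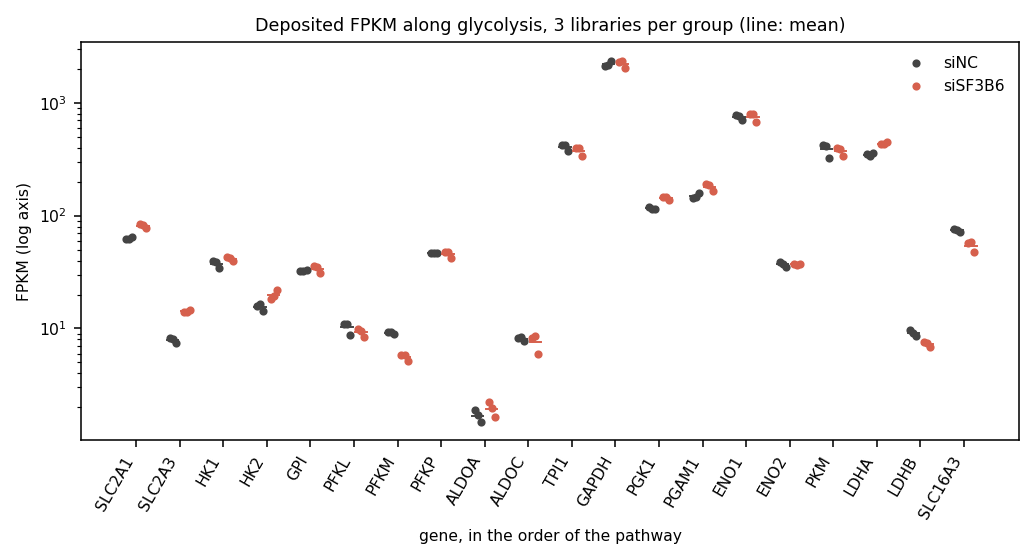
Deposited FPKM (y axis, logarithmic) of each transporter and enzyme in the order of the pathway, 1 point per library, siNC dark and siSF3B6 red, with a line at the mean of 3 libraries. The groups do not overlap at SLC2A1, SLC2A3, HK2, PFKM, PGK1, PGAM1, LDHA, LDHB and SLC16A3. They lie on each other at GAPDH, ENO1 and PKM. The ALDOA and LDHB rows appear low because most reads of their loci were assigned to overlapping genes.

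For 2 enzymes the named row held only a small part of the reads of the locus. ALDOA, the main aldolase (ENSG00000149925.22, chr16:30064164-30070457 on the + strand, GENCODE 29 on GRCh38), had 220 to 340 reads per library. The overlapping protein-coding gene CTD-2515O10.6 (ENSG00000285043.3), which shares 42.3% of the exonic bases of ALDOA on the same strand, had 50016 to 75560 reads. The ALDOA row thus held 0.366% to 0.503% of the reads of both. Its own log2 fold change was 0.25 ± 0.14 SE (adjusted p = 0.159), and that of the summed rows was 0.03 ± 0.10 SE (adjusted p = 0.83). LDHB, the heart-type lactate dehydrogenase subunit (ENSG00000111716.14, chr12:21635342-21757857 on the - strand), had 762 to 1047 reads per library, 3.96% to 4.58% of those of the locus, and the overlapping gene ENSG00000285854.1 had 17553 to 22226. The LDHB row was called lower, from 33.6, 32.1 and 29.7 CPM to 27.6, 26.6 and 24.9 CPM (log2 fold change -0.27 ± 0.09 SE, adjusted p = 0.0246). The summed rows were not called (-0.16 ± 0.08 SE, adjusted p = 0.117). The LDHB row lost its call without the first siNC library (-0.23, adjusted p = 0.121), without the second siNC library (-0.26, adjusted p = 0.0794) and without the second siSF3B6 library (-0.27, adjusted p = 0.0667). With the third siNC library as the lone control its log2 fold change was -0.185. In all, the call of LDHB was lost in 5 of the 21 alternatives, the summed rows included. Pseudogene rows were sought by symbol, as a gene's own symbol followed by P and a number. Such rows amounted to at most 0.188% of the reads of any of the genes described here. Pseudogenes under other names were not counted.

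The make-up of the isozyme families was described by the share of each isozyme in the summed FPKM of its family, a ratio within a library. In all, 14 shares were compared, and with 3 libraries against 3 an exact two-sided permutation test cannot give a p below 0.1, so none could pass 0.05. The PDK1 share of PDK1 and PDK3 was 59.2%, 57.6% and 56.7% with siNC and 68.8%, 71.1% and 73.3% with siSF3B6, a shift of 13.2 percentage points without overlap (exact p = 0.1). Phosphofructokinase held less PFKM, with 13.9%, 14.0% and 13.9% with siNC against 9.20%, 9.17% and 9.24% with siSF3B6 (exact p = 0.1). The PFKP share was 70.6% ± 1.58 with siNC and 75.4% ± 0.38 with siSF3B6 (SD, n = 3, exact p = 0.1), while that of PFKL was 15.5% and 15.4% (exact p = 1.0). The EGLN1 share of EGLN1 and EGLN3 was 83.5% ± 0.69 and 78.2% ± 1.91 (SD, n = 3, exact p = 0.1). HIF1A made up 86.1% ± 0.44 of the summed HIF alpha subunits with siNC and 89.4% ± 1.32 with siSF3B6 (SD, n = 3, exact p = 0.1). SLC2A1 held 88.7% ± 0.76 of the glucose transporter pair with siNC and 85.1% ± 0.87 with siSF3B6 (SD, n = 3, exact p = 0.1). The HK1 share of HK1 and HK2 was 70.7% ± 0.747 and 67.5% ± 3.01 (SD, n = 3, exact p = 0.1). The BNIP3 share of BNIP3 and BNIP3L was 63.9% ± 0.891 and 60.8% ± 0.955 (SD, n = 3, exact p = 0.1). Neither of these shares overlapped between the groups. The shares of ENO1 (95.3% in both groups), PFKFB3 and P4HA1 overlapped between the groups (exact p = 1.0, 0.3 and 0.4). With the overlapping row counted as LDHB, LDHA made up 74.3% ± 0.90 of lactate dehydrogenase with siNC and 80.8% ± 0.36 with siSF3B6 (SD, n = 3), without overlap. Counted the same way, ALDOA made up 98.3% and 98.4% of the aldolases.

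**Figure D4:**
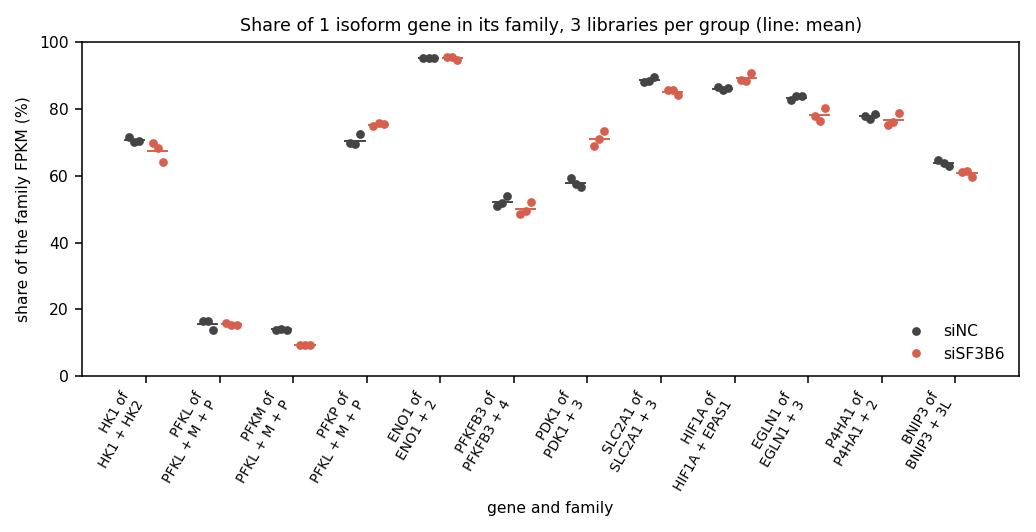
Share of the first-named gene in the summed FPKM of its family (y axis, percent), 1 point per library, siNC dark and siSF3B6 red, with a line at the mean of 3 libraries. PDK1 rises from 57.8% to 71.1% and PFKM falls from 13.9% to 9.20%, whereas ENO1 stays at 95.3%. The aldolase and lactate dehydrogenase families are not drawn because of the reads on overlapping genes.

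Genes around the pathway were taken from 6 lists of 115 genes in all. Their counts stand beside 20.8% called higher and 20.0% called lower over all genes tested. Of 35 tested further HIF targets, 26 (74.3%) were called higher and 2 (5.71%) lower, with a median of 0.42. STC1, the hormone stanniocalcin, was at 24.1, 21.7 and 25.1 CPM with siNC and at 55.4, 52.4 and 54.3 CPM with siSF3B6 (2.29-fold, adjusted p = 1.13e-06), and ERO1A, an oxidase of the endoplasmic reticulum, rose 1.94-fold from a mean of 152 ± 10.2 to 294 ± 18.4 CPM (SD, n = 3, adjusted p = 3.94e-06). TMEM45A and PPFIA4 rose 1.99-fold and 1.94-fold. Of 14 tested HIF partners and members of the degradation machinery, 5 (35.7%) were called higher and 0 lower. CITED2, which competes with HIF for the coactivator EP300, rose 1.67-fold (adjusted p = 1.15e-05), EP300 itself 1.57-fold (adjusted p = 0.000187), and CUL2, the cullin of the VHL ligase, 1.33-fold (adjusted p = 0.00324). The transcript HIF1A-AS3 rose 2.21-fold at a low level, from 2.89, 3.64 and 3.87 CPM to 7.05, 6.93 and 9.02 CPM, and reads of antisense partners cannot be told apart here.

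Of the 9 genes of the pentose phosphate pathway, 0 were called higher and 4 (44.4%) lower, against 20.0% called lower over all genes tested. Their median was -0.22. PGLS, its lactonase, was at 115, 114 and 88.8 CPM with siNC and at 64.8, 65.7 and 48.4 CPM with siSF3B6 (log2 fold change -0.82 ± 0.12 SE, adjusted p = 0.000194). PGD, its second dehydrogenase, was at 301, 299 and 285 CPM with siNC and at 215, 212 and 198 CPM with siSF3B6 (-0.50 ± 0.08 SE, adjusted p = 0.000197), and RPE and TALDO1 fell by 0.60 and 0.50 on the log2 scale. Of the 12 genes of glycogen metabolism, 6 were called higher and 1 lower, with a median of 0.23. PPP1R3C, which targets a phosphatase to glycogen, rose 2.25-fold at a low level (3.76 ± 0.56 to 8.47 ± 0.57 CPM, SD, n = 3, adjusted p = 3.34e-05), the synthase GYS1 rose 1.50-fold (adjusted p = 0.000145) and the branching enzyme GBE1 1.48-fold (adjusted p = 0.000197). Of 12 genes of pyruvate entry into mitochondria, 1 was called higher (PDP1, 1.25-fold) and 1 lower (PC, the pyruvate carboxylase, log2 fold change -0.44 ± 0.10 SE, adjusted p = 0.00372). Each is 8.33% of the list, below the shares over all genes tested. Among 17 other glycolytic isozymes, transporters and regulators, 3 were called higher and 3 lower, 17.6% each and near the shares over all genes tested. Of the named ones TIGAR, a fructose bisphosphatase, had the largest change (1.70-fold, adjusted p = 0.00136). SLC16A7, another monocarboxylate transporter, fell by 0.47 on the log2 scale (adjusted p = 0.00208).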

How the data were processed

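RNA-seq libraries of siSF3B6 and siNC cells, 3 per group, were compared. Groups and replicate numbers come from the sample titles, which all name MDA-MB-231, although the labels' cell line field increases by 1 from sample to sample. Read counts per gene, whole numbers without normalization, and FPKM values were deposited by the authors. The submitters' processing notes name HISAT2, DESeq2 and hg38. The counting tool, the annotation and whether strand was used in counting are not given in the sources used; the libraries were strand-specific per the labels' protocols.

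Counts were tested with edgeR 4.0.16 in R 4.3.3 (filterByExpr, TMM, quasi-likelihood test, no replicate block), with Benjamini-Hochberg adjustment over 16869 genes. Standard errors were derived from the log2 fold change and the F statistic. Exact permutation tests used SciPy 1.17.1. Positions, exon overlaps, GC content and length (for 98.8% of tested genes) come from GENCODE 29, which may differ from the annotation the authors used, and promoters from RefSeq.

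The genes and lists were chosen with earlier results of these data known. All 43 genes could be named. From each related list up to 4 called genes with a mean of 5 CPM or more were named, by size of change. The 21 alternatives covered DESeq2 1.42.0, limma-voom and limma 3.58.1 on log2(FPKM + 1) or log2(FPKM + 0.1), scaling, filters, a replicate block, libraries left out, a GC and length offset, mitochondrial genes, and summed overlapping rows. Counts simulated for siSF3B6 against siNC in 16518 genes were also tested: 84% of 1.5-fold and 100% of 2-fold changes were recovered, and 15 calls were false. Only 50 genes were changed at each fold, whereas 40.8% of genes were called in the data. Simulated libraries were drawn independently around the siNC mean, without the departure of the third siNC library. The number of false calls in the data is therefore not given by this simulation.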

Additional observations from a re-analysis of the deposited data

How the results depend on the processing

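Of the 28 called genes, 21 kept their direction and call under all 21 alternatives, 7 lost the call under at least 1, and 0 reversed. Of the 19 HIF genes, 14 to 18 were called higher and 0 lower under every alternative. With library size as the only scaling, the median of all genes moved from 0.001 to -0.10, the share of calls that were higher from 50.9% to 35.0%, and the medians to 0.269 (43 genes), -0.057 (enzymes) and 0.515 (HIF genes). On log2(FPKM + 1), log2(FPKM + 0.1) and unfiltered log2(FPKM + 1) the enzymes' median was -0.003 and that of the HIF genes 0.504, 0.564 and 0.504. In the unfiltered log2(FPKM + 1) fit 1561 genes and 1 enzyme were called higher. With the third siNC library as the lone control, assumed to vary like the siSF3B6 libraries, 1178 genes were called higher and 1293 lower, 1 of the 43 genes lower and 1 enzyme lower. Enzymes called higher numbered 4 to 7 when single libraries were left out, 8 without the libraries numbered 3 and 11 after the GC and length offset. Enzymes called lower numbered 1 to 2 with single libraries left out and 1 with overlapping rows summed, an alternative chosen after seeing the data. The causes were not tested.

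Reversals occurred among genes that were not called. With library size only, log2 fold changes were -0.0821 (PFKP), -0.0588 (GAPDH), -0.0493 (ENO1) and -0.0574 (ENO2). On the FPKM scales, pseudocounts 1 and 0.1, they were -0.0309 and -0.0315 (PFKP), -0.00947 and -0.00948 (GAPDH), and -0.0027 and -0.00275 (ENO2). With the third siNC library as the lone control they were 0.134 (PFKL), 0.0344 (ALDOC), 0.0776 (TPI1), -0.0413 (GAPDH) and 0.252 (PKM). After the GC and length offset they were 0.174 (PFKL), 0.0892 (ALDOC), 0.079 (TPI1), 0.0759 (PKM) and 0.0133 (EPAS1). Without the libraries numbered 3 they were 0.0694 (ALDOC) and 0.0365 (EPAS1). PFKL was called in opposite directions under 2 of the alternatives. It was called higher after the GC and length offset (adjusted p = 0.0145) and lower without the libraries numbered 3 (-0.12, adjusted p = 0.0156). PKM was 0.00449 with limma-voom and 0.000174 without mitochondrial genes. With single libraries left out, the ranges were -0.00658 to 0.0735 (PFKP), -0.135 to 0.102 (ALDOC), -0.125 to 0.00591 (TPI1), -0.118 to 0.0634 (PKM) and -0.0529 to 0.0042 (EPAS1). The share difference ranged from -0.986 to 0.372 percentage points for PFKL and from -0.143 to 0.248 for ENO1.

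Same-numbered libraries of the groups had correlations of deviations of 0.04, 0.106 and 0.136, above those of differently numbered libraries (-0.12 to 0.037). The labels do not say what a shared replicate number means, so the main test used no replicate block. Whether the numbers pair the samples was not tested. With a replicate block, 4047 genes were called higher and 4005 lower, 27 of the 43 genes higher (EGLN1 and HK1 added) and 3 lower, and PKM was at 0.00425. Depth limits CA9, at 1.52 to 4.94 CPM, whose standard error of 0.20 was the largest of the 43 genes.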
